A study of Mus musculus with 4 samples.

Results

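Hindlimb-only wide Meis regions are stretches of the mouse genome that were called as bound by Meis in hindlimb buds (HLs), were at least 200 bp wide, and shared no base with any region called in forelimb buds (FLs). They were chosen by width and overlap alone from the peak lists of a Meis ChIP-seq experiment on the mm9 genome, without use of the enrichment, p or q values. After summits with the same borders were merged, 71% of HL regions of any width shared no base with an FL region. This share belongs to lists called at a loose cutoff, in which 37% of HL regions had a p-value of at most 0.0005. The paper used 0.0005 for limb-specific peaks and reports that most peaks of its consensus set were shared between the limbs. Of the 6291 HL regions with such a p-value, 428 wide regions and 2606 regions narrower than 200 bp still shared no base with an FL region. The difference from the paper's set was not resolved here, and the 71% is no measure of how much Meis binding was limited to HLs. The rule was met by 921 of the 16987 HL regions, or 5.42%, which are called members below. The other HL regions were 11144 HL-only regions narrower than 200 bp, 2223 wide regions that overlapped an FL region and 2699 narrow regions that did so. The FL list held 21338 regions, of which 3913 were wide and overlapped no HL region.

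FLs and HLs came from wild-type C57BL/6 mouse embryos at E10.5, with 36 somites by the labels. About 500 FLs and about 500 HLs were fixed, and chromatin was precipitated with a pair of anti-Meis antibodies used together, 1 against the isoforms Meis1a, Meis2a and Meis2c and the other against all Meis1 isoforms. For each limb 1 ChIP library and 1 input library were made and sequenced as single-end reads of 50 bp, and 1 peak list. With no replicate of either limb, no test between the limbs was made, and the intervals given with shares cover counting error only. In a pool of whole buds, occupancy in fewer cells and weaker occupancy per cell cannot be told apart.

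Meis1 and Meis2 are homeodomain transcription factors of the TALE class, which bind DNA alone or together with Pbx and Hox proteins. In the early limb bud they mark the proximal domain, and distal cells lose them as the bud grows out under Fgf signals from its distal rim. FLs and HLs share most of their patterning genes but differ in a small set of identity factors, with Tbx5 in the FL and Tbx4, Pitx1 and Isl1 in the HL.

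The regions are given by their mm9 coordinates, since the sequence of that build was not used here. The promoter of Gng13, which encodes a gamma subunit of heterotrimeric G proteins, is shown because it was the only one found under a member. Of 2023 gene starts placed on mm9, this was the only start with a member in the window from 250 bases before to 50 bases after it. The member, chr17:25853901-25854143, ran from 215 bases before the start to 27 bases after it. RefSeq lists 2 start windows for the gene on GRCm38.p6, and the window printed is chr17:25716922-25717221 on the plus strand, whose distance to the neighbouring start of Lmf1 differed by 4 bp from that on mm9, against 360 bp for the other window. The bases in capitals are those from the gene start on.
Gng13: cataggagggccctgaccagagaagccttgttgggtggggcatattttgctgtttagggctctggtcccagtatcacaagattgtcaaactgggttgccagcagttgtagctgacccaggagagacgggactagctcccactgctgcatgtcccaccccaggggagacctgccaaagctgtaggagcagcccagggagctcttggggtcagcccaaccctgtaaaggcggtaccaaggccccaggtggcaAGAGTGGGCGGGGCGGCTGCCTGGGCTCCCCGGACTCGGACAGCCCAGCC

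The GC content of this window was 62%, where the median of 32851 RefSeq windows of the same length was 52.7%. On either strand it held no TGACAG, the core letters of a Meis site, which 19.2% of all windows held. It also held no TGATTGAT, TGATTTAT or TGATNNAT, letters of sites for Pbx and Hox proteins together, which 0.746%, 0.977% and 8.85% of all windows held. TGATNNAT includes the other 2 patterns. GGTGTGA, the letters of a T-box site, and TTTTATTG, those of an A/T-rich site of posterior Hox proteins, were likewise not in it and stood in 3.98% and 1.79% of all windows. The member had a 2.88-fold enrichment over input and a q-value of 1, with 13 ChIP fragments at its summit, and an FL region lay 2.54 kb away.

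Most members were short and weakly enriched, and a small set stood above the rest. Fold enrichment is the peak caller's ratio of ChIP signal to local input background at the highest summit of a region, and q is its p-value after correction for multiple testing. The median member was 231 bp wide, with quartiles of 213 and 266 bp and a range from 200 to 703 bp, and all members covered 231 kb. The median fold was 2.89, with quartiles of 2.63 and 3.34 and a range from 1.37 to 8.35. All HL regions had a median of 2.78, HL-only narrow regions of 2.66 and wide regions that overlapped FL of 4.03. FL-only wide regions had a median of 2.88 in their own library.

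At q of at most 0.05, 92 members were called, or 9.99% (95% Wilson interval 8.22 to 12.1%), where 10.1% of all HL regions were. Among HL-only narrow regions it was 0.835%, among wide regions that overlapped FL 53.2%, and among FL-only wide regions 21.1%. The q-value was 1 for 675 members, or 73.3%. A p-value of at most 0.0005, a stricter cutoff than that of the lists, was reached by 428 members (46.5%), beside 37% of all HL regions. A fold of at least 5 was reached by 32 members (3.47%), beside 4.67% of HL regions. The share of members with a low q was thus close to that of the HL list as a whole and lay between those of the narrow HL-only and the wide shared regions. Since width, fold, p and q come from the same peak call, these values describe the members and are no independent evidence of limb difference.

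**Figure D1:**
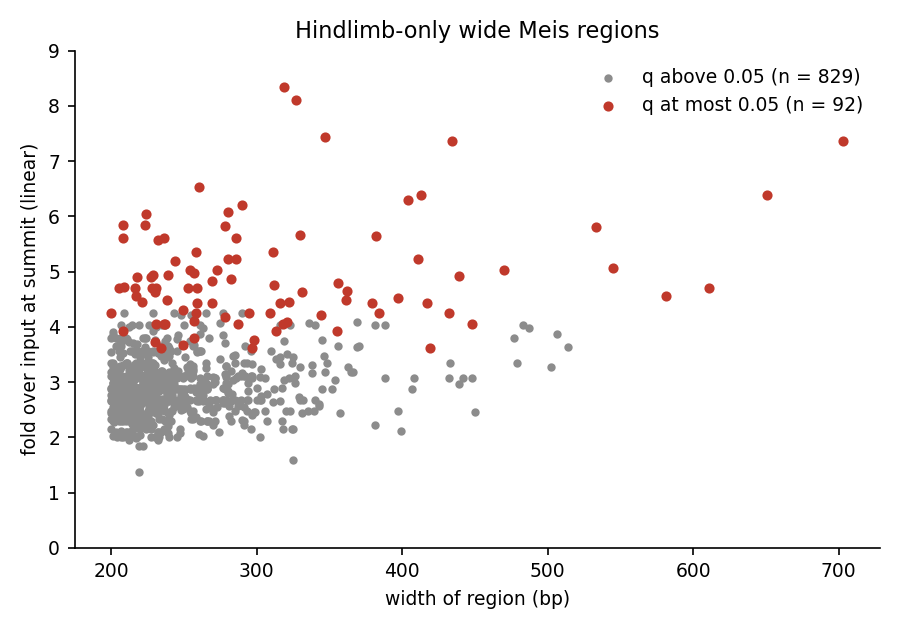
Width in bp (x axis) and fold enrichment over input at the highest summit (y axis, linear) of the 921 members, each point 1 region. The 92 members with q of at most 0.05, in red, have folds of 3.62 and more, and the widest member is 703 bp.

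In the plot of width against fold, the 92 members with q of at most 0.05 had a median fold of 4.71, a median width of 281 bp and a median of 22 fragments. The other 829 members had a median fold of 2.87, a median width of 229 bp and a median of 12 fragments. Across the 921 members, fold rose with width only loosely, with a Pearson r of 0.38 and a Spearman rho of 0.25, values of 1 library that share its depth. At the limit of the rule, the 76 members of 200 to 204 bp had a median fold of 2.71 (2.01 to 4.25), and 1 had q of at most 0.05. The 101 HL-only regions of 195 to 199 bp, just outside it, had a median fold of 2.70 (1.83 to 4.30), and 2 had such a q.

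The number of ChIP fragments over a summit was solved from its fold and p, which the peak caller computes from that number and the local background, and 1 whole-number solution was found for 920 members. The members had a median of 12.5 fragments, with quartiles of 11 and 15. HL-only narrow regions had a median of 11 and wide regions that overlapped FL of 20. In the HL list the lowest number of fragments at the genome-wide background was 9, and in the FL list it was 10. A summit of 12 fragments has an exact 95% Poisson interval from 6.20 to 21.0. The 92 members with q of at most 0.05 all had at least 18 fragments. Fragments of the 2 libraries were not scaled to each other here, and the FL list gives neither the FL fragments nor the FL background at a member. Whether single members differed between the limbs could therefore not be told from these counts.

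The width and the fragments of an HL region both went with whether an FL region lay over it. Of HL regions 100 to 119 bp wide, 11.9% (11.1 to 12.7%) overlapped an FL region. Of regions 180 to 199 bp wide, 43.9% (40.8 to 47.1%) did. In the class just above the limit of the rule, from 200 to 249 bp, the share was 55.5% (52.8 to 58.1%). It reached 93.3% (90.7 to 95.3%) at 400 bp and more, where 31 of 466 regions were members. Among wide HL regions, members made up 82.3% (75.1 to 87.7%) of those with 9 or 10 fragments and 46.7% (42.1 to 51.5%) of those with 13 or 14. They made up 14.0% (11.5 to 17.1%) at 18 to 22 fragments and 3.17% (1.93 to 5.17%) at 30 and more, where 15 of 473 regions were members. Members thus became scarcer at each step of width and of fragments. The part that depth had in their absence from the FL list was not tested.

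**Figure D2:**
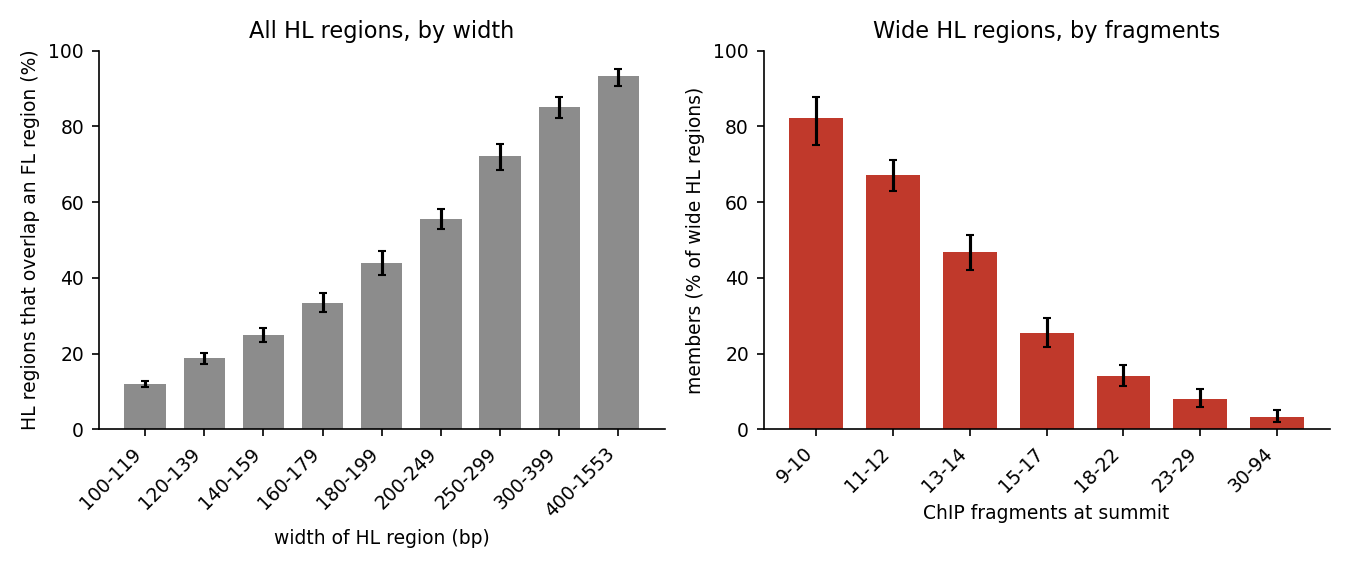
Left, share of HL regions that overlap an FL region (y axis, %) by width class (x axis, bp). Right, members as a share of wide HL regions (y axis, %) by the number of ChIP fragments at the summit (x axis). Bars are shares and whiskers 95% Wilson intervals. Overlap rises from 11.9% to 93.3% with width, and the share of members falls from 82.3% to 3.17% with fragments.

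Ranked by fold among all HL regions, no member was in the first 100 places, 17 were in the first 500 and 50 in the first 1000. Members made up 5.42% of all HL regions, so the count in the first 1000 is close to their share of the list. The best placed member ranked 116. Among the 920 members with a solved number of fragments, the 2 with the most had 77 and 63 fragments but folds of 1.59 and 2.11. These 2 were chosen after their values were seen. They stood on high local backgrounds of 47.7 and 29.0 fragments. Of 920 members, 202 (22.0%, 19.4 to 24.7%) lay at the lowest, genome-wide background, beside 23.6% of all HL regions.

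Most members had a simple shape, but the summit was often off centre. Of the 921, 821 had 1 summit, 89 had 2, 11 had 3 and none had 4 or more. Several summits were thus found in 100 members (10.9%, 9.01 to 13.0%), beside 4.15% of all HL regions, 26.0% of wide regions that overlapped FL and 13.1% of FL-only wide regions. Neighbouring summits of a member lay a median of 143 bp apart, from 34 to 345 bp. In members with 1 summit it fell in the first part of the region, cut into 3 equal parts from the lower coordinate, in 39.5% (36.2 to 42.8%). It fell in the middle part in 38.2% (35.0 to 41.6%) and in the last in 22.3% (19.6 to 25.3%). In single-summit wide regions that overlapped FL, 66.0% (63.6 to 68.2%) had the summit in the middle part. In FL-only wide regions 55.0% (53.3 to 56.7%) did.

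The 10 members with the highest fold reached 6.20 to 8.35. First was chr15:40684453-40684771, 319 bp wide, with a fold of 8.35, q of 6.21e-14 and 41 fragments (Poisson interval 29.4 to 55.6). Its nearest placed start, 198 kb away, was that of Zfpm2, which encodes a cofactor of GATA factors. The nearest FL region lay 33.2 kb from it. Second was chr8:49741032-49741358, with a fold of 8.11, q of 8.86e-12 and 37 fragments. It lay 18.7 kb from the placed start of Tenm3, a teneurin that acts in cell adhesion, and 29.9 kb from the nearest FL region. The spacing between this start and that of Dctd, the placed start on the member's other side, differed by 29.4% from the spacing on GRCm38.

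The next was chr2:118080143-118080489, with a fold of 7.44, 31 fragments and the nearest FL region 49.5 kb away. chr14:15352289-15352991 and chr3:67535880-67536313 both had a fold of 7.37 and 36 fragments. The former was the widest member, 703 bp, with a second summit of 3.85-fold, and lay 91.9 kb from the nearest FL region. The latter lay between Mfsd1, at 149 kb, and Iqcj, at 160 kb, which are neighbours among protein-coding genes in the GRCm38 annotation. The other 5 had folds of 6.20 to 6.53 and 26 to 31 fragments, and the lowest bound of the Poisson interval over all 10 was 17.0 fragments.

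The 5 widest members were 545 to 703 bp wide, with 2 or 3 summits and folds of 4.56 to 7.37, all with q of at most 0.05. chr1:165066086-165066666, 581 bp wide with 3 summits of 3.38 to 4.56-fold, lay between the starts of Mroh9, 50.3 kb away, and Prrx1, 177 kb away, with no other protein-coding gene between these in the GRCm38 order. Prrx1 encodes a homeodomain factor of limb mesenchyme. chr5:132749163-132749813, 651 bp wide, had 2 summits of 3.99 and 6.40-fold and lay 268 kb from the start of Auts2. chr10:91916065-91916675, 611 bp wide with 3 summits of 3.34 to 4.71-fold, lay 181 kb from the nearest FL region.

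A low q and a long distance from FL regions met in 30 members, which had q of at most 0.05 and no FL region within 50 kb. They had folds of 3.68 to 7.37 with a median of 4.93, and 18 to 36 fragments with a median of 21.5. The nearest FL region lay 54.4 to 1386 kb away, with a median of 132 kb. They were spread over 16 chromosomes, 8 had several summits, and 2 had a placed gene start within 100 kb. Starts were placed from peaks common to both limbs, which itself lowers this number far from FL regions. An example of the 30 is chr16:85663212-85663501, of 6.20-fold with 30 fragments. Its nearest placed start, 238 kb away, was that of Adamts5, a protease of cartilage matrix. In the GRCm38 order, Cyyr1 and Adamts1, with no placed start, lie between Adamts5 and App, the placed start on the other side. Another example is chr14:74820939-74821218, of 6.07-fold with 25 fragments, 219 kb from the nearest placed start, that of Htr2a. The member farthest from any FL region was chr1:125738073-125738280, with a fold of 5.61, q of 1.87e-05 and 27 fragments.

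Gene starts on mm9 were available for 2023 genes, placed from peak-to-gene distances in a part of the study's table of peaks common to both limbs, so genes near shared peaks are over-represented and genes with no start are not counted. Of these starts, 282 (13.9%) had a member within 100 kb. Conversely, 261 members (28.3%, 25.5 to 31.3%) had a placed start within 100 kb, beside 29.3% of all HL regions, 25.6% of HL-only narrow regions and 37.4% of wide regions that overlapped FL. Within 5 kb it was 21 members (2.28%), beside 3.14% of all HL regions, and within 1 kb 7 (0.760%), beside 1.04%. Members were thus near a placed start about as often as HL regions in general. Exons, introns and UTRs of mm9 were not annotated here.

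All 3 placed genes of hindlimb identity and initiation, of 9 in the list, had a member within 100 kb, 4 members in all. Tbx4, the T-box gene of the HL, had a pair of members 64.4 and 65.0 kb downstream of its start. The first, chr11:85774649-85774906, had a fold of 4.25, q of 0.0209 and 20 fragments (12.2 to 30.9). The second, chr11:85775230-85775731, was 502 bp wide with 3 summits, a fold of 3.27, q of 1 and 15 fragments (8.40 to 24.7).

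The Tbx4 pair stood 323 bp apart, and the nearest FL region lay 42.7 kb from the first of them. Within 100 kb of the Tbx4 start the lists held 16 HL regions and 12 FL regions. The highest HL fold there, 6.17 at 96.5 kb upstream, belonged to a region that overlapped an FL region of 7.30-fold. Of the 2 HL regions there with q of at most 0.05, 1 was the member and the other this shared region, and 5 FL regions there had such a q.

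Pitx1, the homeodomain gene that sets HL identity, had 1 member 80.7 kb downstream, chr13:55851803-55852038. It had a fold of 4.05, q of 0.0209 and 19 fragments (11.4 to 29.7). A narrow HL-only region of 3.24-fold with 13 fragments followed at 81.1 kb. An HL region of 4.10-fold, q of 0.0462 and 18 fragments lay at 76.6 kb, and an FL region of 2.20-fold with 23 fragments and q of 1 overlapped it. The member itself stood 3.79 kb from that FL region. Of the 5 HL and 6 FL regions within 100 kb of the Pitx1 start, the 2 with q of at most 0.05 were the member and its neighbour at 76.6 kb, and no FL region had such a q.

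Isl1, a LIM homeodomain gene needed for HL initiation, had 1 member, which was the only HL region within 100 kb of the start. It was chr13:117100175-117100445, 0.279 kb upstream, with a fold of 2.29, q of 1 and 10 fragments (4.80 to 18.4). It was among the weaker members, ranked 838 of 921 by fold. The only FL region within 100 kb had a fold of 5.71 and lay 93.4 kb from the member.

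**Figure D3:**
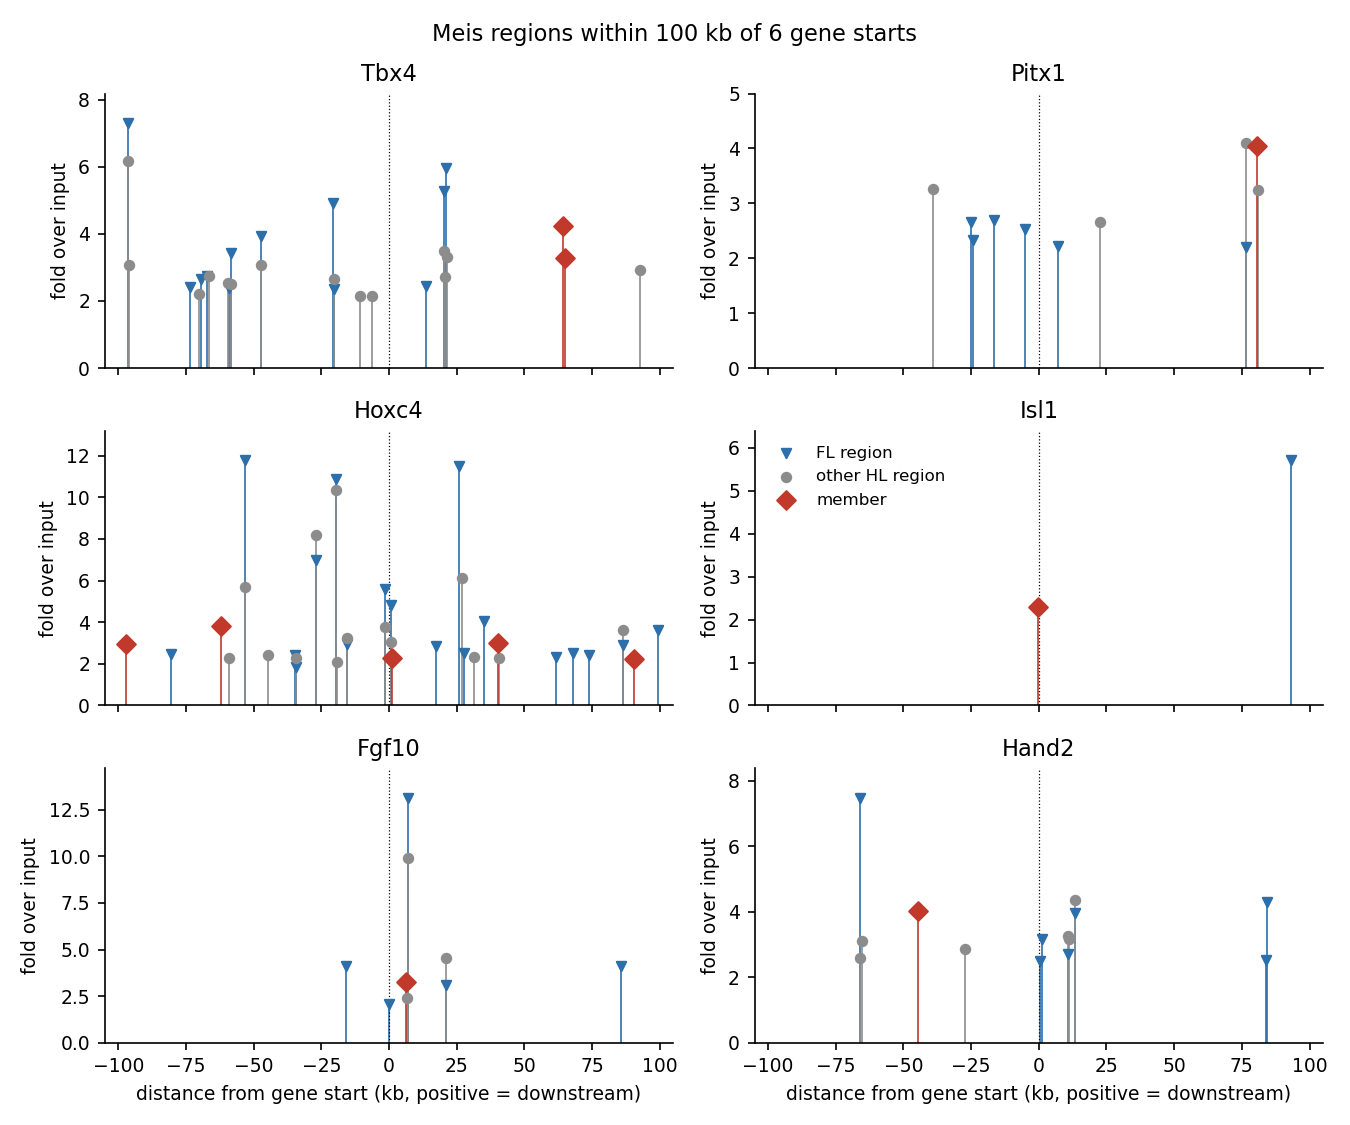
Meis regions within 100 kb of the starts of Tbx4, Pitx1, Hoxc4, Isl1, Fgf10 and Hand2. The x axis is the distance from the gene start in kb, positive downstream, and the y axis the fold over input, which starts at 0 and differs in scale between panels. Red diamonds are members, grey circles other HL regions and blue triangles FL regions. FL and HL folds come from separate libraries. The Tbx4 pair at 64.4 and 65.0 kb has no FL region beside it, and the Pitx1 member stands at 80.7 kb next to a shared region at 76.6 kb.

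Of the 4 genes listed for forelimb identity, 3 were placed. Tbx5, the T-box gene of the FL, had no member within 100 kb, where 5 HL regions with folds of up to 2.91 and 8 FL regions were listed. Hoxc4 and Hoxc5 lie in the HoxC complex and had 5 members between them. The strongest was chr15:102802378-102802634, 62.2 kb upstream of Hoxc4, with a fold of 3.81, q of 0.0327 and 21 fragments (13.0 to 32.1). The other 4 had folds of 2.22 to 3.01, q of 1 and 10 to 14 fragments. One of these, 1.08 kb downstream of the Hoxc4 start, lay 17 bp from an FL region of 4.84-fold. Of the 19 HL regions within 100 kb of Hoxc4, the highest was a shared region of 10.4-fold. The posterior HoxC genes of the list for hindlimb identity, Hoxc8 to Hoxc13, had no placed start. A member near them was therefore counted only by its distance to Hoxc4 and Hoxc5. The strongest member lay upstream of both placed starts, 41.6 kb from that of Hoxc5, so its place in the forelimb list does not tie it to forelimb genes.

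In the HoxA and HoxD complexes, whose genes specify position along the limb axes, 7 of 22 genes were placed, and these neighbouring starts shared 4 members. None of the 4 had q of at most 0.05. The strongest, chr6:52269863-52270091, lay 6.37 kb downstream of Evx1 with a fold of 3.54, q of 0.507 and 17 fragments. A member 4.74 kb upstream of Hoxa2 had a fold of 2.45 and lay 67 bp from an FL region. Beside Hoxd12 and Evx2, a 201 bp member of 3.07-fold and a 448 bp member of 3.08-fold had 2 summits each, and the nearest FL regions were 4.26 and 0.690 kb away.

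Among the TALE genes, 12 of 16 were placed and 4 had a member. Meis1 itself had a pair, chr11:18914801-18915015 and chr11:18913072-18913434, 3.70 and 5.28 kb downstream of its start. They had folds of 2.97 and 3.27, q of 1, and 14 and 15 fragments, and the nearest FL region lay 3.55 kb from the first. At the Meis1 start, shared regions reached 5.45-fold in HLs and 4.11-fold in FLs. Pknox1 had a member of 3.49-fold, Irx2 1 of 2.70-fold and Irx5 a pair of 2.44 and 2.68-fold, the former of that pair 0.982 kb from an FL region. Meis2 and Pbx3 had none.

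The signalling and patterning lists held few members. Of 7 placed genes of antero-posterior patterning, Hand1 and Hand2, which encode bHLH factors, had 1 each. The Hand2 member, chr8:59754714-59755036, lay 44.7 kb upstream with a fold of 4.03, q of 0.0806 and 16 fragments (9.15 to 26.0), and the nearest FL region was 20.9 kb away. Of 9 placed genes of the Fgf pathway, Fgf10, the mesenchymal ligand that induces the distal rim, had 1. This member, chr13:119509679-119510008, lay 6.17 kb downstream with a fold of 3.27, q of 1 and 15 fragments. It stood 448 bp from an FL region of 13.1-fold, which was shared with an HL region of 9.92-fold, so it flanked a site listed in both limbs.

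Of 13 placed genes of the Wnt pathway, 3 had members. The ligand Wnt2 had a pair, 11.3 kb upstream and 91.5 kb downstream, of 3.77 and 3.57-fold, both with q of 0.386. The ligand Wnt11 and the transcription factor Lef1 had members of 2.66 and 2.68-fold, with q of 1. Of 15 placed genes for the proximo-distal axis and the girdles, Tfap2a and Sox6 had members of 2.51 and 2.71-fold. None of these Wnt, proximo-distal and girdle members had q of at most 0.05.

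Lbx1, a gene of migrating muscle precursors, had a member of 2.85-fold 73.1 kb upstream, 1 of 4 placed genes of the limb muscle list. The 7 placed genes of the BMP and TGF-beta list had no member within 100 kb. The 2 placed genes of the list for other cell types of the bud, which names endothelial, blood, nerve and ectoderm genes, had none either. With so few starts placed, and 13.9% of all placed starts near a member, these counts describe single loci and set no list apart. Over all lists, the members with q of at most 0.05 were 1 of the pair at Tbx4, the 1 at Pitx1 and 1 of the 5 at the HoxC complex.

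Members lay within 1 kb of an FL region somewhat more often than narrow HL-only regions did, and at longer distances the shares were closer. The median distance to the nearest FL region was 13.0 kb, and 402 members (43.6%, 40.5 to 46.9%) had one within 10 kb, beside 40.3% (39.4 to 41.2%) of HL-only narrow regions. Within 1 kb it was 127 members (13.8%, 11.7 to 16.2%) beside 10.4% (9.87 to 11.0%), and within 100 bp 30 members (3.26%) beside 2.09%. Beyond 100 kb it was 79 members (8.58%, 6.94 to 10.6%) beside 9.45%. FL-only wide regions were farther from HL regions, with 34.2% within 10 kb and 20.1% beyond 100 kb, but the HL list they were set against was shorter.

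**Figure D4:**
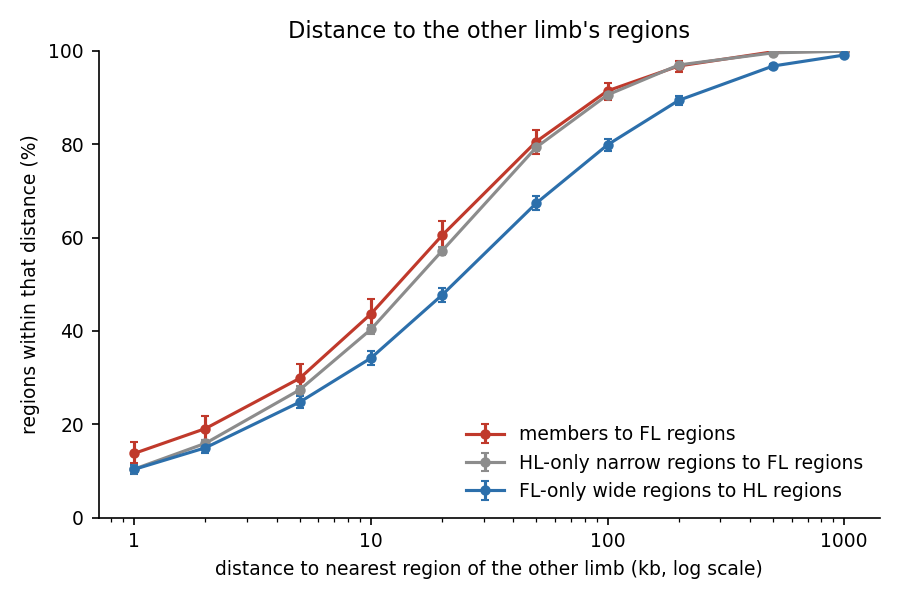
Share of regions (y axis, %) within a distance in kb (x axis, log scale) of the nearest region of the other limb, for members, HL-only regions under 200 bp and FL-only wide regions. Points are shares and whiskers 95% Wilson intervals. The curves of the members and of the narrow HL-only regions run close together, with 43.6% and 40.3% within 10 kb.

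In 3 members the nearest FL region was within 10 bp, and in 1 of them, chr1:13918334-13918599, the regions abutted with no base between. The strongest of the 3, chr7:75704642-75705002, had a fold of 4.48 and stood 8 bp from the FL region. The 126 FL regions that were nearest to a member within 1 kb had a median fold of 2.95, and 26.2% (19.3 to 34.5%) had q of at most 0.05, beside 17.4% of all FL regions. Of these 126, 42.1% (33.8 to 50.8%) overlapped some other HL region, beside 22.6% of all FL regions. Some members thus flanked sites listed in both limbs.

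The members farthest from any FL region had the highest median fold and the largest share with a low q. Members with an FL region within 1 kb had a median fold of 2.88, and 6.30% (3.23 to 11.9%) had q of at most 0.05. Members 1 to 10 kb away had a median of 2.87 and a share of 8.73% (5.93 to 12.7%). At 10 to 100 kb the median was 2.89 and the share 9.55% (7.14 to 12.7%). The 79 members beyond 100 kb had a median fold of 3.12, and 22.8% (14.9 to 33.2%) had such a q. Of these 79, 7.59% had a placed start within 100 kb, beside 30.7% of members within 1 kb of an FL region. Starts were placed from peaks common to both limbs, which itself lowers the share far from FL regions. The contrast in placed starts is therefore no trait of the members.

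Members often had other HL regions nearby. Another member lay within 1 kb in 7 neighbouring pairs, within 10 kb in 23 and within 100 kb in 100, which took in 179 members. Counting all HL regions, 14.3% (12.2 to 16.7%) of members had another HL region within 1 kb, beside 9.75% of HL-only narrow regions and 24.3% of wide regions that overlapped FL. Within 10 kb it was 45.8% of members, beside 37.2% and 46.2%.

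Members were also set against regions common to the Tbx5 peaks of FLs and the Hoxc10 peaks of HLs. Tbx5 is the T-box factor of FLs and Hoxc10 a posterior Hox factor present in HLs. The 2 factors were mapped in different limbs, so binding of both in the same cells was not shown. The list came with the paper and was made without Meis. Of 921 members, 5 shared a base with a region of this list, or 0.543% (0.232 to 1.26%), beside 2.61% of all HL regions. The share was 13.5% of wide regions that overlapped FL, 2.15% of FL-only wide regions and 0.117% of HL-only narrow regions. The list held 618 regions. Of these, 548 lay over an FL region and 442 over an HL region, and of the 70 over no FL region, 17 lay over an HL region. Since members may not overlap an FL region, the rule itself keeps them off most of this list, and of the HL groups given here the HL-only narrow regions share that limit.

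The strongest of the 5 was chr3:7029066-7029291, with a fold of 4.03, q of 0.0806 and 16 fragments, 102 kb from the nearest FL region. chr6:144893633-144893877 had a fold of 3.78 and lay 10.2 kb from an FL region. chr14:80576325-80576554, of 3.77-fold, and chr14:101987090-101987295, of 3.46-fold, lay 171 and 21 bp from FL regions. The last, chr5:119024289-119024546, had a fold of 2.83 and lay 13.6 kb from the start of Med13l, which encodes a subunit of the Mediator kinase module, and 152 kb from the nearest FL region. None of the 5 had q of at most 0.05, and all had 13 to 17 fragments.

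Members were found on every autosome, and chromosome 11 had the largest share of HL regions that were members. The share ranged from 4.16% on chromosome 7 (3.11 to 5.54%) to 7.25% on chromosome 11 (6.01 to 8.71%), where 103 of 1421 HL regions were members. On chromosome 15 it was 6.96% (5.35 to 9.01%). These intervals are not corrected for the number of chromosomes. HL regions of any width that shared no base with an FL region were also frequent on chromosome 11, at 1113 of 1421, beside 12065 of 16987 on all chromosomes. Of 86 HL regions on chromosome X, 17 were wide and none was a member, which allows a share of up to 3.49% of these HL regions by a limit of 3 counts (Wilson upper bound 4.28%). Members with q of at most 0.05 were most numerous on chromosomes 9, with 10 of 51 members, and 11, with 9 of 103. The share over all members was 9.99%, so the count on chromosome 11 goes with its number of members. By share they were most frequent on chromosome 18, with 6 of 24, and chromosome 14 had 7 of 34. Chromosome 19 had none among 26 members.

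**Figure D5:**
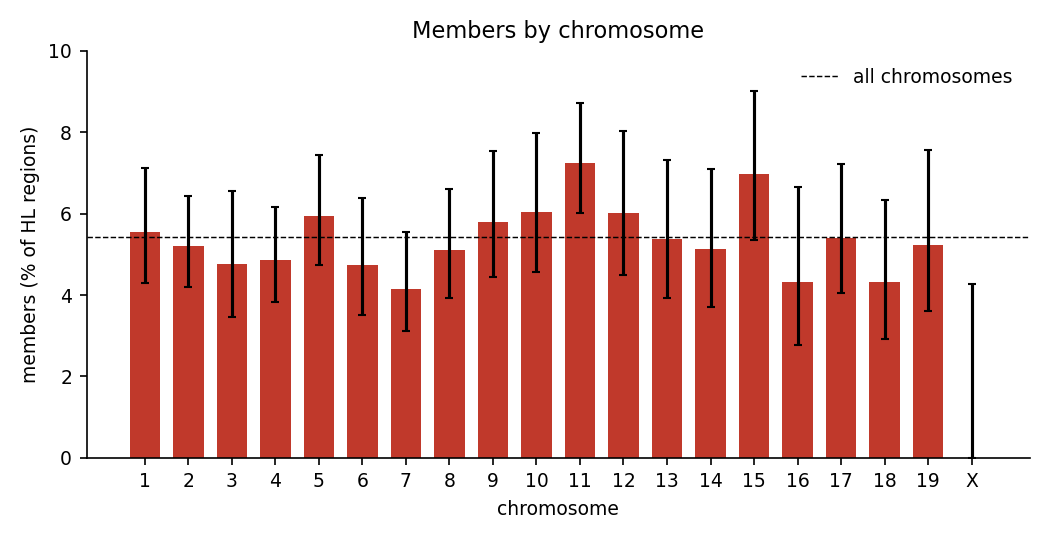
Members as a share of HL regions (y axis, %) on each chromosome (x axis). Bars are shares, whiskers 95% Wilson intervals and the dashed line is the share over all chromosomes, 5.42%. The intervals, not corrected for the number of chromosomes, include the dashed line on all autosomes but chromosome 11. Chromosome X has no member among 86 HL regions.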

How the data were processed

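Meis ChIP-seq peak lists of 1 FL and 1 HL library were analysed. The authors aligned reads to mm9 with BWA and called peaks with MACS2, each limb's ChIP against its own input, splitting a peak into summits where it had several. The submitters' processing notes also name CASAVA 1.8.2, cutadapt 1.3 and SAMtools. The deposited fold enrichment is a ratio to local background at the summit. The authors deposited p and q as −log10 values of that caller. The deposited score is 10 times −log10 p with decimals dropped in nearly all rows, and the authors' files give summits in bp from the region start. Score was not used.

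Rows with the same borders were merged, keeping the best fold, p and q among their summits, and positions are counted from 1. Regions sharing at least 1 bp overlapped. Fragments at a summit were solved from fold = (x + 1)/(background + 1) and the Poisson p, with x the scaled fragments, to within 0.003 in −log10 p. This step, the classes of width and fragments, and the strata by distance were added after seeing the data. The median depth of 12.5 fragments sets the precision of single members. Library totals were not used here. Shares have 95% Wilson intervals, fragments exact Poisson intervals.

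Gene starts on mm9 came from distances between peaks and genes in the study's table of common peaks, of which 1994 rows were used, kept where they agreed within 2 bp. GRCm38 annotation gave strand and gene order, and no coordinate was converted. Named regions were the 10 highest folds, the 5 widest, all with at least 4 summits, all over Tbx5-Hoxc10 regions, those with q of at most 0.05 and no FL region within 50 kb, and those within 100 kb of placed genes of 11 lists. The text gives examples of the larger sets. The members and lists were chosen with earlier results of these data known. Scripts were tested on simulated data. Alternatives changed the width, the q or p cutoff, the distances and the FL list. Motif content of the regions was not analysed here, since it needs mm9 sequence. Versions were scipy 1.17.1, numpy 2.4.6, matplotlib 3.10.9 and pandas 2.3.3 on Python 3.11.15.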

Additional observations from a re-analysis of the deposited data

How the results depend on the processing

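With 1 library per limb, neither the members nor the comparisons have a replicate error, and the depth limits single members to wide counting intervals. No paired analysis was possible with 1 library per limb, and no result comes from a test. Of 32 alternatives, 9 left a value within its interval (for a number of members, within 1.5 times) and 23 moved it. With a minimum width of 150, 250 and 300 bp, the number of members was 3014, 314 and 125. Over the same widths, the share with q of at most 0.05 was 5.01%, 20.1% and 30.4%, the median fold was 2.68, 3.12 and 3.34, and the share with several summits was 3.65%, 22.0% and 36.0%. At 300 bp 0% of 125 members lay over a Tbx5-Hoxc10 region. With HL p of at most 0.0005, 428 members were left. When only FL regions with q of at most 0.05 counted as overlapping, there were 1668 members, of which 18.8% had such a q. At q of at most 0.01 the share of members was 7.06%. The share with an FL region nearby was 29.9% within 5 kb, 60.5% within 20 kb and 19.8% when only FL regions with p of at most 0.0005 counted. The share with a placed start nearby was 17.6% within 50 kb, 44.4% within 200 kb and 16.6% with genes placed by at least 2 peaks. Each of these follows from how the alternative was built, since it changes the regions or the distance counted. Requiring no FL region within 100 or 1000 bp left 891 or 794 members. Motif content was not run.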

Other observations

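Of the 92 members with q of at most 0.05, 9 (9.78%) lay within 30 kb of a placed gene start, beside 110 of all 921 members (11.9%). The distance was chosen after the values were seen, and these genes are in no list of the report except where it names Tenm3. Of these 9, the member closest to a start was chr9:65063692-65063940, 0.738 kb from Parp16, with a fold of 4.30 and 21 fragments. A member 4.36 kb from Tpbg, a membrane glycoprotein, had a fold of 3.72 with 30 fragments and stood 0.493 kb from an FL region. Members of 4.90-fold with 25 fragments and of 4.64-fold with 22 fragments lay 13.1 kb from Tshz1 and 21.7 kb from Zfp503, which encode zinc-finger factors. The former stood 0.182 kb and the latter 4.50 kb from an FL region. A member 18.7 kb from Lpar1, a receptor for lysophosphatidic acid, had a fold of 3.92 with 19 fragments, and the nearest FL region was 11.9 kb away.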
